A study of Arabidopsis thaliana with 6 samples.

Results

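The 9 genes described here encode the enzymes that write and erase 5-methylcytosine in Arabidopsis thaliana, together with the chromatin remodeller that gives some of them access to DNA. They are a functional family picked out by locus identifier, so no measured value enters the rule, and all 9 were found among the 33323 genes counted. Transcripts were measured by mRNA sequencing in pieces of style holding grown pollen tubes. There were 3 libraries from plants carrying paps1-1, a mutant allele of the nuclear poly(A) polymerase gene PAPS1 that the labels place in Col-0, and 3 from wild-type (WT) Col-0. The labels give no age or treatment, and leave unsaid which partner, the male tubes or the female tissue, was mutant. The comparison asked which of these transcripts differ between the genotypes.

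In plants, cytosines are methylated in CG, CHG and CHH contexts, where H is any base but G, and the methyltransferases differ in the contexts and sites they serve. MET1 copies CG methylation after replication, CMT3 keeps CHG methylation at nucleosomes marked by histone H3 lysine methylation, CMT2 keeps CHH methylation in heterochromatin, and DRM2 methylates sites that small RNAs point out. DDM1 is a SNF2-class remodeller that opens heterochromatin to these enzymes. Methylation is removed by DNA glycosylases of the DME family, which cut out the methylated base: DME acts in the central cell of the ovule and in the vegetative cell of pollen, and ROS1, DML2 and DML3 act mainly in sporophytic tissue. The ROS1 promoter is itself known to be a target of methylation, which raises its transcription.

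The coding sequence around the catalytic site is shown for each enzyme, to make the split into families visible. The sequences were read from the RefSeq coding sequences of assembly TAIR10.1, 5′ to 3′ on the coding strand and spliced where an intron falls inside. Capitals in the first 4 mark the codons of the proline and of the catalytic cysteine that attacks the base. 
MET1: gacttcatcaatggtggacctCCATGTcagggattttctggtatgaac
CMT2: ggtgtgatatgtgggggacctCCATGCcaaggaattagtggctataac
CMT3: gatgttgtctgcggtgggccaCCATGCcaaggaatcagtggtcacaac
DRM2: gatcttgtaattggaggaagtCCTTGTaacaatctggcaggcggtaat
The capitals begin at codon 1197 of MET1, codon 914 of CMT2, codon 459 of CMT3 and codon 586 of DRM2. Over these 48 bases CMT2 and CMT3 shared 36, and MET1 shared 31 with CMT2 and 30 with CMT3. DRM2 shared 24 with MET1, 24 with CMT2 and 21 with CMT3. In DRM2, whose catalytic domain is known for its rearranged order of motifs, the site lies near the end of 626 codons.

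In the glycosylases the capitals mark the codon of the catalytic aspartate. 
ROS1: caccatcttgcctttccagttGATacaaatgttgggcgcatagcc
DME: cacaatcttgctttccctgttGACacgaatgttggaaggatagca
DML2: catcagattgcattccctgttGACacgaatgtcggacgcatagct
DML3: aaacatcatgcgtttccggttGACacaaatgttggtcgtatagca
This codon is number 971 in ROS1, 1562 in DME, 903 in DML2 and 672 in DML3. Of the 45 bases, 29 were identical in all 4 glycosylases, against 17 of 48 in all 4 methyltransferases. DDM1 has neither site, and its capitals mark the box of its ATPase domain, from codon 333. 
DDM1: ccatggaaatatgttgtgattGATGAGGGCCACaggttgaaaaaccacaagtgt

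MET1 (AT5G49160) lies at chr5:19932114-19938470, DRM2 (AT5G14620) at chr5:4715105-4718704, DME (AT5G04560) at chr5:1309099-1318520 and DDM1 (AT5G66750) at chr5:26648897-26653191 on TAIR10.1. CMT2 (AT4G19020) lies at chr4:10414428-10421265 and DML3 (AT4G34060) at chr4:16313366-16319426. CMT3 (AT1G69770) lies at chr1:26248118-26253687, ROS1 (AT2G36490) at chr2:15307907-15314807 and DML2 (AT3G10010) at chr3:3081735-3088550. No annotated gene overlaps any of the 9, and the counts of the separate strands added up to the unstranded count within 2 reads for each gene in each library.

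Reads counted in genes ranged from 4541233 to 18717968 in the paps1-1 libraries and from 13707799 to 21031017 in the WT libraries. Levels are given in CPM, counts scaled to a common library size with TMM factors. The shallowest library, paps1-1 replicate 2, also stood apart in that 74.6% of its reads mapped to several places, against 7.28% to 28.0% in the other 5, and values that it moves most are also given without it. Of the labelled partners, the pollen tube was well represented: all 14 markers of the pollen vegetative cell and tube had enough reads to test, with a summed level of 30861 to 45048 CPM in paps1-1 and 29834 to 73153 CPM in WT. Most of this sum was from VGD1, at 20385.5 to 31958.9 CPM in paps1-1 and 20581.6 to 52269.8 CPM in WT. The sums of different lists do not give the proportions of the tissues. Of 9 style markers, 5 had enough reads to test, with a sum of 31.1 to 37.2 CPM in paps1-1 and 23.0 to 34.5 CPM in WT. The highest of them was SPT, at 18.2 to 19.8 CPM in paps1-1 and 11.7 to 17.9 CPM in WT, while HEC1 and HEC2 were at 0 in every library. Ovule markers, 3 tested of 4, summed to 49.7 to 69.8 CPM in paps1-1 and 41.0 to 65.9 CPM in WT. The summed level of 3 tapetum and anther markers was 0.638 to 1.13 CPM in paps1-1 and 1.22 to 1.61 CPM in WT. In bulk tissue of this kind, fewer cells of a type and less RNA per cell cannot be told apart.

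**Figure D1:**
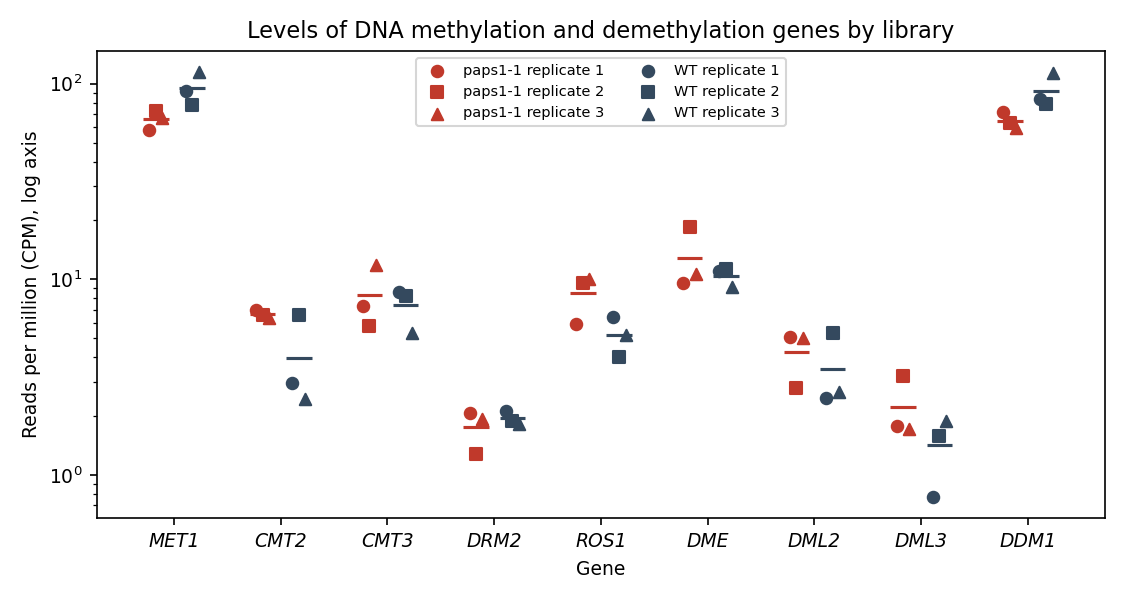
CPM of each gene on a log axis in the 3 paps1-1 libraries (red, left) and the 3 WT libraries (blue, right), with 1 symbol per replicate number and a bar at the mean. MET1 and DDM1 stand between 58.3 and 115 CPM in every library, and the other 7 genes lie at or below 18.5 CPM.

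The remodeller DDM1 and the CG methyltransferase MET1 dominated the set. Per kilobase of coding sequence, DDM1 stood at 28.1 ± 2.63 CPM per kb in paps1-1 and 40.2 ± 8.30 CPM per kb in WT, and MET1 at 14.3 ± 1.52 and 20.6 ± 4.03 CPM per kb (SD, n = 3 each). CMT3 followed at 3.30 ± 1.27 CPM per kb in paps1-1 and 2.94 ± 0.714 CPM per kb in WT. The other 6 genes averaged 0.672 to 2.17 CPM per kb in paps1-1 and 0.428 to 1.75 CPM per kb in WT. For comparison, the median over 17778 tested protein-coding genes was 6.88 CPM per kb in paps1-1 and 6.68 CPM per kb in WT. DDM1 stood above 80.3% of these genes in paps1-1 and 84.4% in WT, MET1 above 67.8% and 74.5%, and DME above 22.7% and 19.3%.

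The order of the levels was the same at its top in both genotypes. By the mean, DDM1 was followed by MET1 and then by CMT3. In all 6 libraries DDM1 stood above MET1 and MET1 above the rest, and within each genotype the range of neither overlapped that of the next gene. CMT3 came next in every library but paps1-1 replicate 2, where DME and ROS1 stood above it. The ranges of CMT3 and DME overlapped in paps1-1 and not in WT. Among the lower genes, DME and ROS1 were neighbours whose ranges overlapped in both genotypes. In WT the ranges of ROS1, DRM2, CMT2 and DML2 overlapped from each to the next, so their order was not resolved. In paps1-1 CMT2 stood above DML2 with no overlap, its lowest value being 1.64 CPM per kb and the highest of DML2 1.26 CPM per kb. In WT their ranges overlapped. DML3 had the lowest mean in both genotypes.

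None of the 9 transcripts passed the test between genotypes, at a Benjamini-Hochberg adjusted p under 0.05 over all 18317 genes tested with edgeR's quasi-likelihood test. By that rule 2.34% of all tested genes were called, 1.16% higher and 1.18% lower in paps1-1. All 9 genes had enough reads to be tested. At an unadjusted p under 0.05 there were 2, CMT2 and ROS1, both with higher means in paps1-1, while 10.3% of all tested genes met that limit, 4.23% higher and 6.05% lower. DESeq2 called 0 as well, with 3 at an unadjusted p under 0.05, namely MET1, ROS1 and DDM1. Of all genes DESeq2 called 3.39%, and 9.75% had an unadjusted p under 0.05. The median log2 fold change of the 9 (paps1-1 over WT) was 0.27, with 6 positive and 3 negative. All 4 glycosylases were among the positive ones, at a median of 0.46, and MET1, DRM2 and DDM1 were the negative ones. Over all tested genes 53.5% were positive and 46.5% negative, and the median was 0.03.

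MET1, the CG maintenance methyltransferase, stood at 58.3, 72.1 and 66.7 CPM in paps1-1 replicates 1 to 3, and at 91.7, 78.1 and 115 CPM in WT replicates 1 to 3. All 3 paps1-1 values lay below all 3 WT values, and the highest value was that of WT replicate 3. The log2 fold change was -0.53 (SE 0.25, 95% interval -1.07 to 0.01), with an adjusted p of 0.490 by edgeR. As a ratio of paps1-1 to WT this interval runs from 0.477 to 1.004, around a value of 0.692.

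DDM1, the remodeller, gave almost the same picture. It stood at 71.3, 63.0 and 59.5 CPM in paps1-1 replicates 1 to 3, and at 83.7, 78.8 and 114 CPM in WT replicates 1 to 3. Again no paps1-1 value reached a WT value, and WT replicate 3 was the highest. Its log2 fold change was -0.51 (SE 0.25, 95% interval -1.05 to 0.02; edgeR adjusted p = 0.517). MET1 and DDM1 were the only 2 of the 9 genes whose genotypes did not overlap. Over all tested genes, 14.7% had groups without overlap, 6.92% with paps1-1 higher and 7.82% with paps1-1 lower. Without WT replicate 3 the log2 fold changes were -0.40 for MET1 and -0.36 for DDM1.

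The ratio of MET1 to DDM1 per coding kilobase differed little between genotypes. It was 0.407, 0.571 and 0.558 in paps1-1 replicates 1 to 3 and 0.546, 0.494 and 0.502 in WT replicates 1 to 3, with means of 0.512 ± 0.091 and 0.514 ± 0.028 (SD, n = 3 each). The lowest and the highest ratio were both in paps1-1.

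MET1 and DDM1 are known to be transcribed in dividing cells, so markers of dividing cells are given beside them. Of 12 such markers 11 were tested, none was called by edgeR, and 4 of them had a positive log2 fold change (median -0.25). Their summed level was 247, 221 and 181 CPM in paps1-1 replicates 1 to 3 and 222, 256 and 336 CPM in WT replicates 1 to 3. The ranges overlapped, and WT replicate 3 was the highest library, as it was for MET1, for DDM1 and for the pollen markers, at 73153 CPM. In every library TSO2 was the largest single part of the dividing cell sum. Its own values overlapped widely, at 114, 92.8 and 48.9 CPM in paps1-1 replicates 1 to 3 and 64.5, 94.2 and 129 CPM in WT replicates 1 to 3. The overlap of the sums thus rests in part on this gene. TMM scaling gave WT replicate 3 a library size of 14247800 for 19288861 gene reads, and WT replicate 2 one of 16382300 for 13707799. All CPM of WT replicate 3 were thus raised together, and its rank depends in part on this scaling. Among the markers MCM2, a subunit of the replicative helicase, had the smallest p by edgeR. It stood at 16.7 ± 3.06 CPM in paps1-1 and 31.5 ± 4.66 CPM in WT (SD, n = 3 each; log2 fold change -0.91, edgeR adjusted p = 0.0745). PRL had the next smallest p, at 24.3 to 28.9 CPM in paps1-1 and 40.7 to 66.5 CPM in WT (log2 fold change -0.88, edgeR adjusted p = 0.104). The 4 markers with a positive log2 fold change were RNR1 (0.42), CDKB1;1 (0.39), PCNA2 (0.33) and MCM5 (0.03). The part of these markers in the values of MET1 and DDM1 was not tested.

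**Figure D2:**
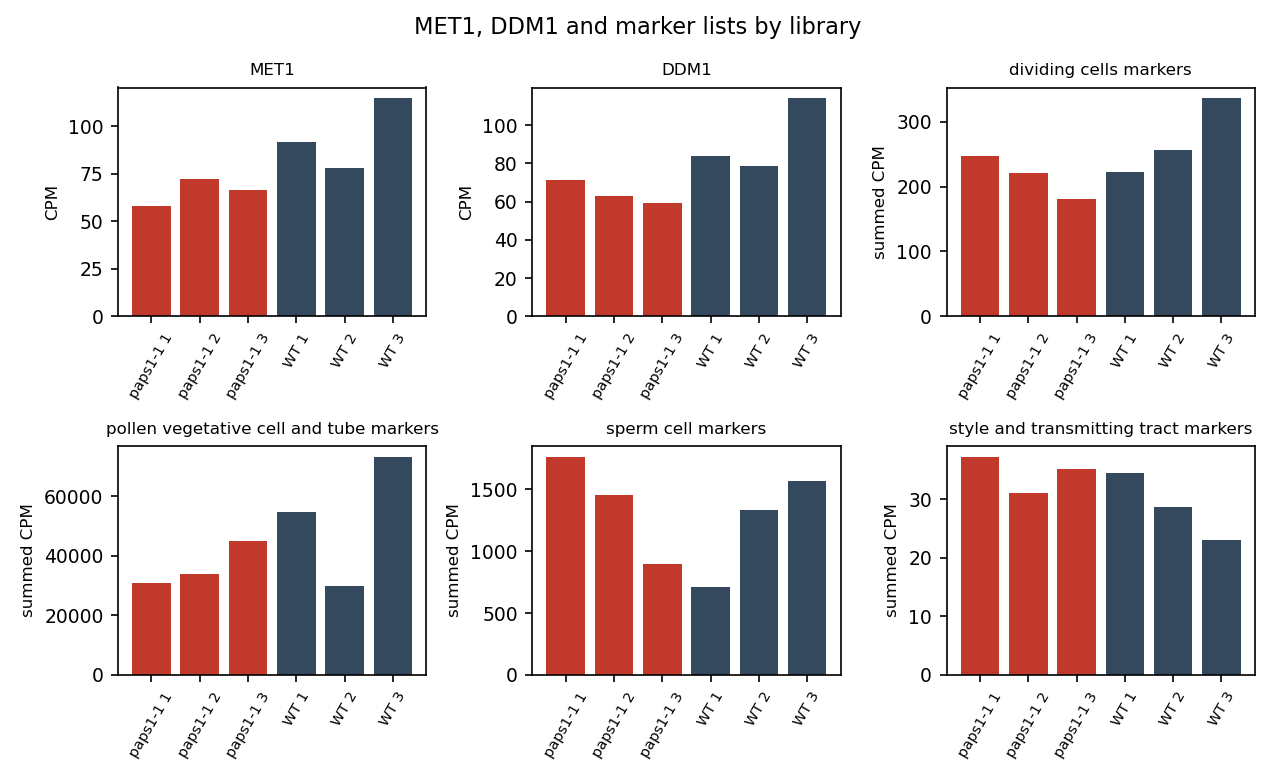
CPM of MET1 and DDM1 and summed CPM of 4 marker lists in the 6 libraries, paps1-1 in red and WT in blue. WT replicate 3 is the highest bar for MET1 (115 CPM), DDM1 (114 CPM), the dividing cell markers (336 CPM) and the pollen vegetative cell and tube markers (73153 CPM). The rank of this library depends in part on its TMM scaling.

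Sperm cell markers did not share that order of libraries. Their summed level was 1763, 1455 and 894 CPM in paps1-1 replicates 1 to 3 and 711, 1334 and 1564 CPM in WT replicates 1 to 3. The ranges overlapped, with the lowest library in WT. Of the 10 tested of 11 genes in this list, 9 had a positive log2 fold change and 1 was called, DAZ2, a sperm transcription factor gene. GEX2, a sperm cell gene whose locus number is next to that of MET1, was at 0 in the 3 paps1-1 libraries and at most 0.140 CPM in WT.

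The non-CG methyltransferases were scarcer. CMT2 stood at 7.0, 6.60 and 6.37 CPM in paps1-1 replicates 1 to 3 and at 2.94, 6.53 and 2.46 CPM in WT replicates 1 to 3. The paps1-1 libraries lay close together, and WT replicate 2 reached into their range. The log2 fold change was 0.74 (SE 0.35, 95% interval 0.01 to 1.48; edgeR adjusted p = 0.480). It depended on the WT libraries: it was 1.29 without WT replicate 2 and 0.47 without WT replicate 3, and the adjusted p over all alternatives ranged from 0.054 to 0.917.

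CMT3, the CHG methyltransferase, stood at 7.30, 5.75 and 11.9 CPM in paps1-1 replicates 1 to 3 and at 8.62, 8.24 and 5.33 CPM in WT replicates 1 to 3. The genotypes overlapped, and paps1-1 replicate 3 held the highest value. In that library the 4 photosynthesis markers also summed to 278 CPM, against 46.7 to 80.9 CPM in the other 5. Of this sum 254 CPM were from RBCS1A, the small subunit of Rubisco, while RBCS2B was higher in paps1-1 replicate 1. The markers' part in the value of CMT3 was not tested. Its log2 fold change of 0.20 (SE 0.31, 95% interval -0.45 to 0.85) turned to -0.16 without paps1-1 replicate 3 and to -0.01 without WT replicate 3. The ratio of CMT2 to CMT3 per coding kilobase was 0.622, 0.744 and 0.348 in paps1-1 replicates 1 to 3 and 0.221, 0.514 and 0.298 in WT replicates 1 to 3. These ranges overlapped. This ratio, and that of MET1 to ROS1 below, were chosen after the values were seen.

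DRM2, the methyltransferase of the small RNA pathway, was close in level in all 6 libraries. It had 35, 6 and 38 reads in paps1-1 replicates 1 to 3 and 41, 31 and 26 reads in WT replicates 1 to 3, or 2.08, 1.28 and 1.92 CPM against 2.12, 1.89 and 1.82 CPM. The 6 reads of paps1-1 replicate 2 allow a level of 0.469 to 2.78 CPM (exact Poisson interval at 95%, counting error only), which spans the values of all other libraries. The log2 fold change was -0.09 (SE 0.36), with a 95% interval from -0.85 to 0.67, so folds from 0.557 to 1.59 are inside it. Without paps1-1 replicate 2 the log2 fold change was 0.01.

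Of the glycosylases, ROS1 had the smallest p. It stood at 5.93, 9.58 and 10.06 CPM in paps1-1 replicates 1 to 3 and at 6.40, 4.03 and 5.19 CPM in WT replicates 1 to 3. Replicates 2 and 3 of paps1-1 lay above every WT library, and replicate 1 lay between WT values. The log2 fold change was 0.70 (SE 0.29, 95% interval 0.07 to 1.32; edgeR adjusted p = 0.387). With each library left out in turn it ranged from 0.52 to 0.91, with a positive sign each time.

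DME, the glycosylase of the central cell and the vegetative cell, was the most abundant of its family by the mean in both genotypes. Per coding kilobase, its lead over ROS1 in paps1-1 depended on replicate 2 (3.10 against 2.29 CPM per kb). In replicate 1 the values were 1.61 against 1.42 CPM per kb, and in replicate 3 ROS1 stood higher (1.78 against 2.41 CPM per kb). DME stood at 9.61, 18.5 and 10.6 CPM in paps1-1 replicates 1 to 3 and at 11.0, 11.2 and 9.12 CPM in WT replicates 1 to 3. The single high value came from paps1-1 replicate 2, and the other 5 libraries lay between 9.12 and 11.2 CPM. The log2 fold change was 0.27 (SE 0.28, 95% interval -0.33 to 0.87) with all libraries and -0.07 without that one.

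DML2 and DML3 are further relatives of ROS1. DML2 stood at 5.04, 2.77 and 5.01 CPM in paps1-1 replicates 1 to 3 and at 2.48, 5.31 and 2.67 CPM in WT replicates 1 to 3. In each genotype replicate 2 was the exception, low in paps1-1 and high in WT, and the ranges overlapped almost fully (log2 fold change 0.35, SE 0.35). DML3 had 30, 15 and 34 reads in paps1-1 replicates 1 to 3 and 15, 26 and 27 reads in WT replicates 1 to 3. That gave 1.78, 3.19 and 1.72 CPM against 0.774, 1.59 and 1.90 CPM, with a log2 fold change of 0.57 (SE 0.43, 95% interval -0.35 to 1.5). The highest value was that of paps1-1 replicate 2, and without that library the log2 fold change of DML3 was 0.30.

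**Figure D3:**
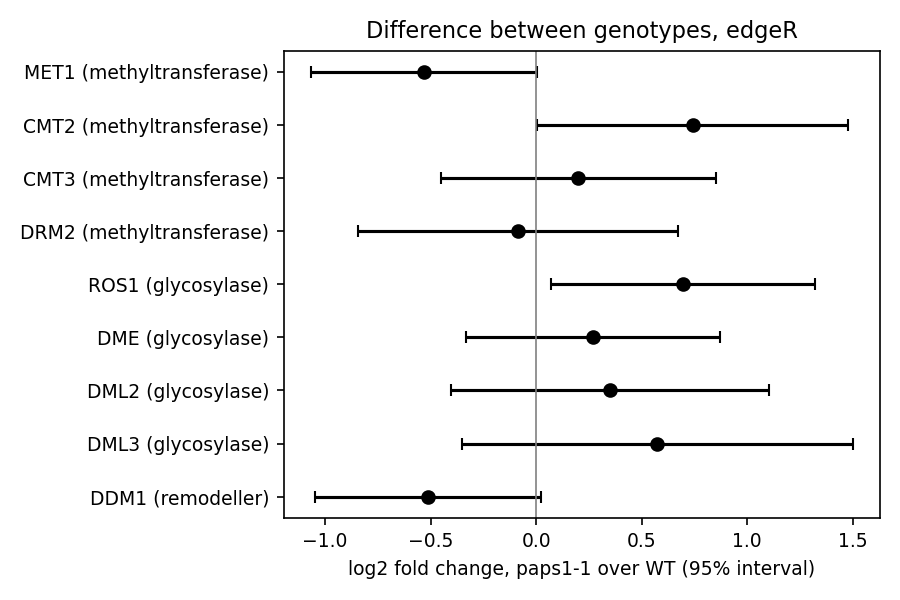
Log2 fold change of each gene, paps1-1 over WT, with its 95% interval from edgeR's quasi-likelihood fit (3 libraries per genotype). The intervals of ROS1 (0.07 to 1.32) and CMT2 (0.01 to 1.48) lie just above 0, those of the other 7 genes include it, and none of the 9 passed after adjustment over all genes.

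Values within a library do not depend on how libraries are scaled, so the balance of writers and erasers was also given library by library. The summed level of the 4 methyltransferases over that of the 4 glycosylases, per coding kilobase, was 3.82, 2.88 and 3.67 in paps1-1 replicates 1 to 3 and 5.96, 4.92 and 7.14 in WT replicates 1 to 3. The genotypes did not overlap, and the means were 3.46 ± 0.504 in paps1-1 and 6.01 ± 1.11 in WT (SD, n = 3 each). Without paps1-1 replicate 2 the paps1-1 mean was 3.75. No test was made of a value summed over genes that were chosen together. The sums behind this ratio also lay apart: methyltransferases came to 18.5 to 21.9 CPM per kb in paps1-1 against 22.9 to 28.6 CPM per kb in WT, and glycosylases to 4.83 to 7.05 against 4.01 to 4.65 CPM per kb.

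Between genotypes, the ratio of the mean sums, paps1-1 over WT, was 0.790 for methyltransferases and 1.38 for glycosylases, so both sums entered the difference. The glycosylase sum was 4.83, 7.05 and 5.96 CPM per kb in paps1-1 replicates 1 to 3. Its highest value was thus that of replicate 2, the library with 74.6% multi-mapping reads. MET1 was the main part of the methyltransferase sum and made up 68.6%, 77.1% and 66.3% of it in paps1-1 replicates 1 to 3 and 79.0%, 74.0% and 87.0% in WT replicates 1 to 3. Of the others, CMT2 and CMT3 had higher means in paps1-1 (1.71 against 1.02 and 3.30 against 2.94 CPM per kb). DRM2 had a slightly lower mean there (0.935 against 1.03 CPM per kb). The lower methyltransferase sum in paps1-1 thus came from MET1, and not from the methyltransferases as a class. MET1 over ROS1 alone was 8.92, 6.84 and 6.02 in paps1-1 replicates 1 to 3 and 13.01, 17.6 and 20.1 in WT replicates 1 to 3, without overlap. This pair was chosen after the values were seen. MET1 was lower in paps1-1 without overlap and ROS1 had the smallest edgeR p of the glycosylases, so the separation follows in part from that choice. Within the glycosylases the makeup was less distinct. ROS1 made up 29.4% to 40.4% of their sum in paps1-1 and 20.7% to 36.2% in WT, and ROS1 over DME was 0.738 to 1.35 in paps1-1 and 0.512 to 0.830 in WT, both with overlap.

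**Figure D4:**
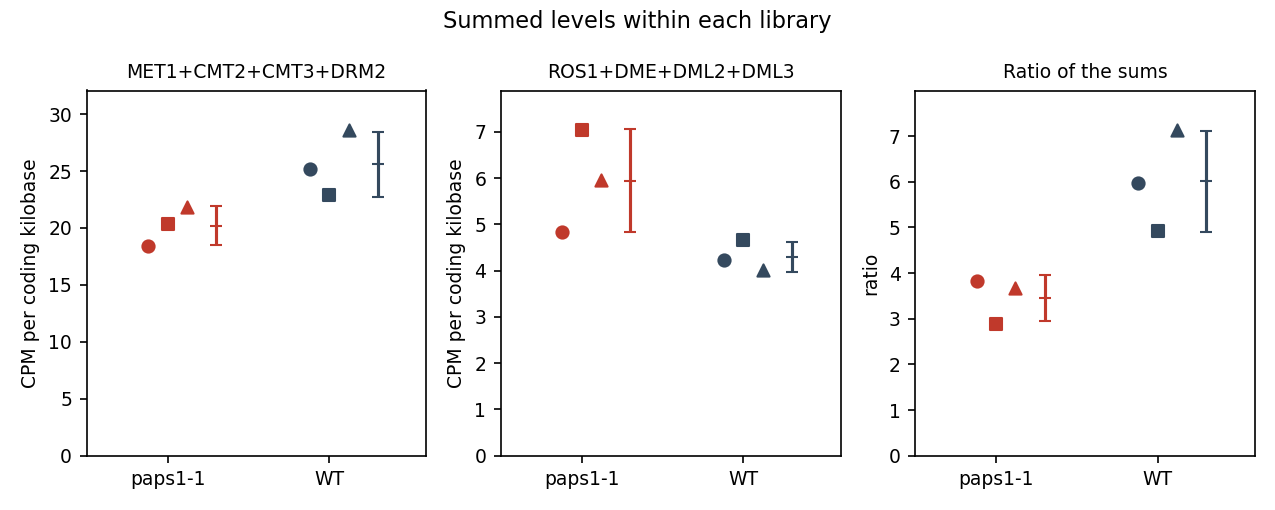
Summed CPM per coding kilobase of the methyltransferases (left) and the glycosylases (middle), and the ratio of these sums (right), for each paps1-1 library (red) and WT library (blue), with mean and SD beside the points. The ratio is 2.88 to 3.82 in paps1-1 and 4.92 to 7.14 in WT.

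Most related enzymes outside the set had few reads. Of 7 other methyltransferase genes, 5 had too few reads to test: DRM1, CMT1, MET2a, MET2b and MEE57, with 3 to 31 reads each over the 6 libraries. DRM3, a catalytically inactive relative that assists DRM2, had more reads than DRM2, at 14.3 ± 2.64 CPM in paps1-1 and 10.5 ± 2.38 CPM in WT (SD, n = 3 each; log2 fold change 0.46, SE 0.26). DNMT2, which methylates transfer RNA, had a log2 fold change of 0.27 (SE 0.39). Neither passed the edgeR test.

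The cofactors of maintenance methylation showed 1 called gene among 15 tested of 16, with 8 log2 fold changes positive, 7 negative and a median of 0.04. VIM5, of the VIM family of proteins that bind hemimethylated DNA for MET1, rose to 2.67, 3.83 and 2.12 CPM in paps1-1 replicates 1 to 3, against 0.671, 0.366 and 1.19 CPM in WT replicates 1 to 3. The genotypes did not overlap (log2 fold change 1.90, SE 0.46, edgeR adjusted p = 0.0406). The call was lost without paps1-1 replicate 1 (adjusted p = 0.0775), paps1-1 replicate 2 (0.148), WT replicate 1 (0.0913) or WT replicate 2 (0.134), in each case by edgeR. The log2 fold change of VIM5 was then 1.93, 1.68, 1.83 and 1.58, in the same order. VIM genes are close copies of one another, so reads that map to several of them are missing from these counts and the value is uncertain. VIM1, another member of the family, had a log2 fold change of -0.06 (SE 0.25), VIM4 one of 0.75 (SE 0.53), the histone methyltransferase SUVH4, which feeds CMT3, one of -0.46 (SE 0.30), and the histone deacetylase HDA6 one of -0.26 (SE 0.29).

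Of 15 partners of demethylation 14 were tested. None was called by edgeR or DESeq2, and none had an unadjusted p under 0.05 by edgeR. Their median log2 fold change was -0.04, with 6 positive. APE1L, an endonuclease that trims the break left by the glycosylases, stood at 1.72, 3.19 and 3.49 CPM in paps1-1 replicates 1 to 3 and at 4.13, 5.25 and 4.07 CPM in WT replicates 1 to 3. These values did not overlap, and the log2 fold change of -0.70 (SE 0.33) had an adjusted p of 0.487 by edgeR. IDM3, of the complex that guides ROS1, had a log2 fold change of -0.93 (SE 0.46) at 0.684 ± 0.145 CPM in paps1-1 and 1.25 ± 0.375 CPM in WT (SD, n = 3 each). MET18, of the iron-sulfur assembly pathway that serves the glycosylases, had one of 0.44 (SE 0.29), and the histone chaperone gene SSRP1, which assists DME, one of -0.33 (SE 0.24).

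In the RNA-directed DNA methylation pathway, which guides DRM2, 2 of 25 tested genes of 26 were called, 1 in each direction, and the median log2 fold change was 0.00. IDN2, a protein that binds double-stranded RNA, rose to 16.2 ± 1.56 CPM in paps1-1, against 5.96 ± 1.17 CPM in WT (SD, n = 3 each; log2 fold change 1.45, SE 0.26, edgeR adjusted p = 0.00387). CLSY3, a remodeller that recruits RNA polymerase IV, fell to 23.0 ± 9.09 CPM, against 55.9 ± 10.5 CPM in WT (log2 fold change -1.30, SE 0.29, edgeR adjusted p = 0.0241). The call of CLSY3 was lost without paps1-1 replicate 1 (adjusted p = 0.135), paps1-1 replicate 3 (0.110), WT replicate 1 (0.0540) or WT replicate 3 (0.0581), by edgeR. Its log2 fold change was then -1.09, -1.22, -1.19 and -1.30, in the same order. The call of IDN2 held under every alternative run, with a highest adjusted p of 0.0415. DCL3, the dicer of this pathway, had a log2 fold change of 1.1 (SE 0.33) and CLSY4 one of -0.50 (SE 0.25), and neither passed. VIM5, IDN2 and CLSY3 all lie on chromosomes 1 and 3, where 3.7% of 8497 tested genes were called, against 1.17% of 9820 on chromosomes 2, 4 and 5. That grouping of chromosomes was chosen with earlier results known, and its part in these values was not tested. Of the 9 genes of the set, CMT3 and DML2 lie on these chromosomes.

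**Figure D5:**
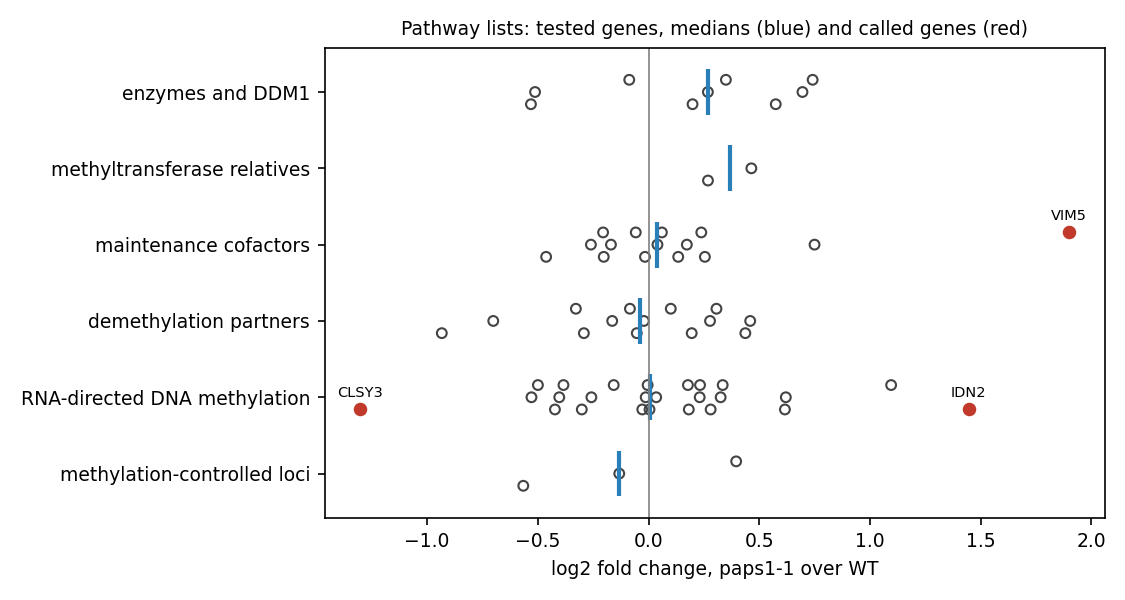
Log2 fold change, paps1-1 over WT, of every tested gene in the set of 9 (top) and in 5 pathway lists, with list medians as blue bars and genes at an adjusted p under 0.05 in red. The called genes are VIM5 (1.90) and IDN2 (1.45) on the right and CLSY3 (-1.30) on the left.

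Most loci whose transcription is known to depend on DNA methylation had few reads. Of 7 such genes 3 were tested and none was called by edgeR or DESeq2, with none at an unadjusted p under 0.05 by edgeR. EVD, a retrotransposon that is active in ddm1 and met1 mutants, had no read in any library, where 3 reads would correspond to 0.152 to 0.638 CPM. Reads that map to several places are missing from these counts, so the absence of reads does not show that EVD was silent. FWA had 29, SDC 40 and FIS2 8 reads over the 6 libraries. PHE1, an imprinted MADS-box gene, stood at 49.0, 53.0 and 59.7 CPM in paps1-1 replicates 1 to 3 and at 42.8, 41.9 and 38.3 CPM in WT replicates 1 to 3, without overlap (log2 fold change 0.40, SE 0.23, edgeR adjusted p = 0.623). QQS, whose level varies with methylation of its upstream repeats, had a log2 fold change of -0.57 (SE 0.37), and MEA, an imprinted target of DME, one of -0.13 (SE 0.43).

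The genes most like each of the 9 in pattern were looked for among 12139 others with a mean log2 CPM of at least 2, by Pearson's r of log2 CPM over the 6 libraries. With so many genes and 6 libraries high values are found for every gene, and they are given as a description. The closest to DDM1 was AT3G58510 (r = 0.999), to MET1 AT4G32600 (0.997), to CMT2 EMB2788 (0.998), to CMT3 AT1G10585 (0.996) and to DRM2 AT5G52760 (0.997). For the glycosylases they were NFU1 for ROS1 (0.983), AT3G20170 for DME (0.995), COP1 for DML2 (0.996) and EMB2261 for DML3 (0.988). An r of at least 0.95 was reached by 192 genes for DDM1, 88 for CMT3, 84 for CMT2 and 70 for MET1, and by 11 to 24 for the other 5 members. Between the members themselves, r was 0.86 for MET1 with DDM1 and -0.91 for MET1 with CMT2, over 6 libraries that share the genotype difference. Other pairs reached similar values, among them DRM2 with DME (-0.88), CMT2 with DDM1 (-0.84) and DRM2 with DML3 (-0.82).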

How the data were processed

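Per the labels' protocols, RNA was prepared with the PicoPure kit and digested with DNase, and mRNA libraries were read on a HiSeq2000. The submitters' processing notes name STAR and the TAIR10 genome; its version and settings are not stated in those notes. The deposited values are raw counts, whole reads per gene with strand ignored, with no normalization by the authors. The ratio of the strand totals lay between 1.02 and 1.07, that of libraries without strand information. Library sizes count gene reads only: unmapped reads made up 1.32% to 4.36% of all reads, multi-mapping reads 7.28% to 74.6%, reads outside genes 2.71% to 9.93% and ambiguous reads 0.228% to 1.65%.

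Genes were filtered with filterByExpr (minimum count 10), scaled by TMM and tested with edgeR 4.0.16 (glmQLFit and glmQLFTest, two-sided, R 4.3.3). The test used all 6 libraries, with Benjamini-Hochberg adjustment over 18317 genes. This step was run on simulated data, in which only genes above a floor of mean CPM were changed. That run does not speak for genes as low as DRM2 and DML3. Log2 CPM used a prior count of 2. The SE was derived from the log2 fold change and the F statistic of the edgeR test. The 95% intervals use this SE and so restate the unadjusted test. Coding and exonic lengths, places and sequences came from the RefSeq annotation of TAIR10.1; locus identifiers matched for 32835 of 33323 genes, and all 71 list genes matched. TAIR10.1 differs in name from the build of the counts, which hold no coordinates.

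The labels call only the WT samples biological replicates, so p-values reflect only how far these samples vary, and for paps1-1 that variation may be technical. No 2 libraries agreed within sampling noise (chi-square per degree of freedom of at least 31.2). The rule for the members uses locus identifiers only, but the family, lists, tests and alternatives were chosen with earlier results of these data known. The text names all 9 members, every called gene and up to 4 genes of smallest p per list, and the gene most alike to each member; VIM1, untested genes and single markers were named after their values were seen. Alternatives were RLE factors, DESeq2 1.42.0, no filter, a stricter filter (5 CPM in 3 libraries), leaving out each library, WT replicate 3 and paps1-1 replicate 2 left out together, a replicate block, and another gene length.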

Additional observations from a re-analysis of the deposited data

How the results depend on the processing

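No alternative called any of the 9 genes, and the lowest adjusted p of any was 0.054, for CMT2. Of 106 alternative values of their log2 fold changes, 101 kept the sign. The exceptions were DRM2 (0.0124) and DME (-0.0718) without paps1-1 replicate 2, CMT3 without paps1-1 replicate 3 (-0.164) and without WT replicate 3 (-0.0103), and DME with WT replicate 3 and paps1-1 replicate 2 both left out (-0.161); the cause was not tested. With single libraries left out, the log2 fold change ranged from -0.656 to -0.403 for MET1, -0.616 to -0.360 for DDM1, 0.471 to 1.29 for CMT2, -0.164 to 0.346 for CMT3, -0.207 to 0.0124 for DRM2, 0.525 to 0.914 for ROS1, -0.0718 to 0.445 for DME, 0.146 to 0.783 for DML2 and 0.262 to 0.801 for DML3. DRM2 and DML3 were not kept by the filter of 5 CPM in 3 libraries.

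The number of all genes called was 429, against 1042 with no filter, 215 with that stricter filter and 237 without both libraries named above. Calls among the maintenance cofactors numbered 1 (VIM5), against 0 under the stricter filter, which left VIM5 out, and 0 without both libraries. With single libraries left out they numbered 0 to 1, and the 2 calls of RNA-directed DNA methylation were 1 to 2. Genotypes share replicate numbers, but deviations of same-numbered libraries from their group means correlated at -0.256, 0.126 and -0.151, so the numbers were not taken as pairs. The replicate block changed no call of a member or list: 0 of the 9 genes and 482 genes in all were called with it, and MET1 and DDM1 had log2 fold changes of -0.52 and -0.50. The mean ratio of methyltransferases to glycosylases was 3.01 in paps1-1 and 5.32 in WT with no length correction, and 3.59 and 6.29 with exonic lengths, an alternative chosen after seeing the data. Genes of few reads, such as DRM2 and DML3, are limited by counting error.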
